A study of Mus musculus with 30 samples.

Results

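Trim63, also called MuRF1, is a ubiquitin ligase that binds the sarcomere and marks muscle proteins for the proteasome. Its transcript is among the best-known signs of muscle protein breakdown, and it rises when FoxO factors are freed from insulin signaling and when the glucocorticoid receptor is active. The same state is known for other ubiquitin ligases such as Fbxo32, for fatty acid use in place of glucose and for brakes on the growth kinase mTORC1. The 30 gastrocnemius libraries of the series, 1 per mouse, were ranked by Trim63 in FPKM, the read count scaled to exon length and library size, and the classes were chosen by that measured level. The 10 highest (high class) were compared with the 10 lowest (low class) for every other gene, and the 10 between them (middle class) were kept apart. The classes are cuts of a measured level and not treatments, so each comparison asks which genes varied together with Trim63 between mice.

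All mice were wild-type C57BL/6J males, housed singly with a running wheel and with food always present, and studied at an advanced age. LD mice (n = 14) stayed for 64 weeks under 12 h of light per day on a fixed clock, and ADV mice (n = 16) under a cycle that was advanced by 8 h every 4 days, a chronic jet lag. Muscle was collected, together with the plantaris, over several hours of the light period, when ADV mice shared the light cycle of LD mice. The labels give neither the hour nor the feeding state of a mouse. Poly(A) RNA was sequenced to between 18875468.5 and 28512674 reads on exons per library, where 1 mate of a pair counts as 0.5 read. The skeletal muscle markers fitted the labelled tissue in both classes: their FPKM summed to between 58000 and 78100 in the high class and between 61100 and 78500 in the low class.

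Trim63 ranged from 95.9 to 657 FPKM, a 6.85-fold range. The high class held 256 to 657 FPKM (median 331), the middle class 145 to 246 (median 188) and the low class 95.9 to 144 (median 125). The last library inside the high class had 256 FPKM and the first outside it 246, and at the lower cut the values were 145 outside and 144 inside, so neither cut fell in a gap. The highest libraries, ADV 35 with 657 FPKM and ADV 30 with 649, stood above LD 33 with 463. At least 4319.5 reads lay behind each value.

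**Figure D1:**
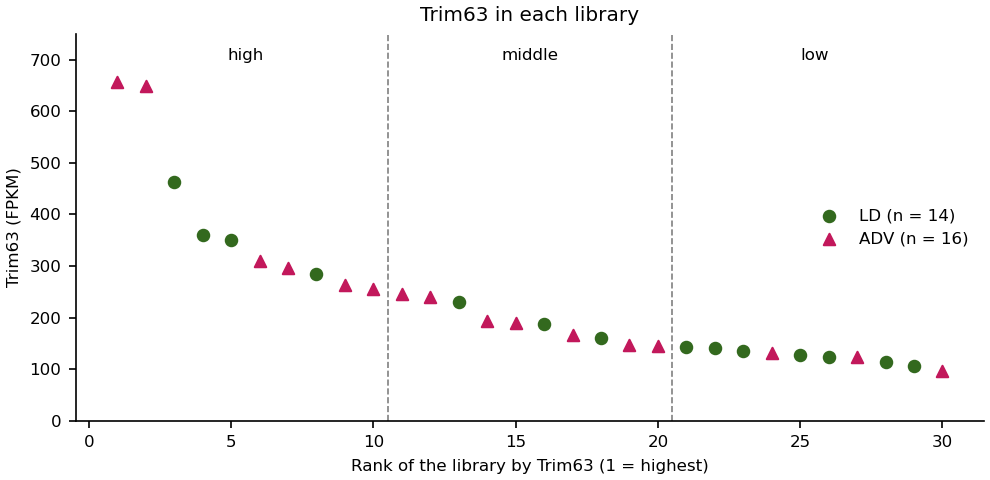
Trim63 in FPKM (vertical axis) for each library against its rank (horizontal axis), with LD mice as circles and ADV mice as triangles; the dashed lines are the class limits. The level fell without a gap at either limit, from 657 to 95.9 FPKM, and both schedules occurred in every class.

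Both schedules were present in each class, but not evenly. The high class held 4 LD and 6 ADV mice, the middle class 3 and 7, and the low class 7 and 3. The median of Trim63 was 153 FPKM over the LD mice (107 to 463) and 216 over the ADV mice (95.9 to 657). The schedule was therefore a term of the model. The number in a mouse's label also differed between the classes: its median was 32.5 in the high class, 26 in the middle class and 27.5 in the low class, and the sources do not say what the number follows. With that number in the model, 147 genes were called in place of the 342 given below, 142 of them among the 342. The share of reads on exons was 90.9 to 92.7% in the high class and 91.1 to 91.5% in the low class.

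The promoters of Trim63, of its fellow ligase Fbxo32 and of Foxo1 are shown because they belong to the classic atrophy genes and to a factor that drives them. Each is the 300 bases before the start of the transcript in the deposited table, read 5′ to 3′ on the strand of the gene from GRCm39. Capitals mark the FoxO element GTAAACA or the palindromic glucocorticoid receptor element, each searched on both strands.
Trim63 (chr4:134042131-134042430, plus strand): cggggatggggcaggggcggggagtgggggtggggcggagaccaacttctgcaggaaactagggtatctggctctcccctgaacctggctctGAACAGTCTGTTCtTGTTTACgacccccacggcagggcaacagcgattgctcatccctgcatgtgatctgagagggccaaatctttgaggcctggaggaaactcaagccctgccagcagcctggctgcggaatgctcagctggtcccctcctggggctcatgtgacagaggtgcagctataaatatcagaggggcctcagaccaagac
Fbxo32 (chr15:58078329-58078628, minus strand): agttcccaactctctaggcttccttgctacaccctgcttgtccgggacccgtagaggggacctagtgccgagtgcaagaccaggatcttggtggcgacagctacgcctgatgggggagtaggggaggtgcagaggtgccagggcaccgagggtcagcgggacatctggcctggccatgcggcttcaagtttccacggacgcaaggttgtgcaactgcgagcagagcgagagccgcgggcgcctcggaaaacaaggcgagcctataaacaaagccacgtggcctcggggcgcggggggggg
Foxo1 (chr3:52175457-52175756, plus strand): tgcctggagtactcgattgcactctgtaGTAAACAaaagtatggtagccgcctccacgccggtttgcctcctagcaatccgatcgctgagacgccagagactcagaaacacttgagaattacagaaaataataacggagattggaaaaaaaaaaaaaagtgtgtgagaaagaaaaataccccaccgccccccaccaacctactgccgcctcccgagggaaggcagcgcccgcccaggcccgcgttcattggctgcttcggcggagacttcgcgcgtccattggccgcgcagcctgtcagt

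In Trim63 the glucocorticoid receptor element GAACAGTCTGTTC lay 208 to 196 bases before the start, and a FoxO element followed on the other strand at 194 to 188 bases. Foxo1 held its FoxO element at 272 to 266 bases. The Fbxo32 window matched neither motif, which says only that these letters are not in this window. Over the promoters of 12027 genes tested, 2.83% held the FoxO element and 0.349% the glucocorticoid receptor element. Among the genes called higher in the high class, described next, 10 of 152 promoters (6.58%) held the first and 6 (3.95%) the second. Among those called lower, 3 of 190 (1.58%) and 2 (1.05%) did. The 6 higher calls with the glucocorticoid receptor element were Map3k6, Slc10a6, Fam107a, Txnip, Gm11827 and Tns2. None of these 6 is on the list of glucocorticoid receptor targets described below. The shares are descriptions of letters in a window, with no test. Each window follows the deposited start. Of 12012 tested rows whose transcript is in the GENCODE vM39 annotation, 2860 had the same start and end there. Starts alone were not compared.

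Across 12029 genes other than Trim63, edgeR's quasi-likelihood test with schedule as a term called 342 genes (2.84% of those tested) between the high and low classes. A call needed a difference of more than 1.3-fold and an FDR (the p adjusted by Benjamini and Hochberg's method) below 0.05. Of these, 152 (1.26%) were higher in the high class and 190 (1.58%) lower, so 44.4% of the calls were higher. That share was 25.9% when libraries were scaled by size alone, which moved the median of all genes from 0.01 to -0.05 on the log2 scale, and 24.9% in limma on log2(FPKM + 0.1). The higher calls were the larger changes and the more abundant genes: 33 of them and 10 of the lower calls exceeded 2-fold, and their median FPKM over 30 libraries was 7.58 against 1.9. Levels of 18 genes (0.15% of those tested) did not overlap between the classes, 2 of them (0.0166%) higher and 16 (0.133%) lower in the high class. Since the tissue was sequenced in bulk, fewer cells of a type and less RNA per cell cannot be told apart in any of these results.

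Of the ubiquitin ligases known from muscle atrophy, 3 of 21 besides Trim63 were called higher and 0 lower, with a median log2 fold change of 0.11 beside 0.01 for all genes tested. Fbxo32 (atrogin-1, chromosome 15, 58039275 to 58078328, minus strand), the substrate-binding part of a ubiquitin ligase complex, ran from 61.6 to 223 FPKM in the high class (median 115) and from 35.6 to 95.3 in the low class (median 73.2). Its level exceeded that of every low library in 8 of 10 high ones, and ADV 35 and ADV 30, the highest in Trim63, were also highest in Fbxo32. The difference was 1.04 ± 0.23 on the log2 scale (SE here and below), or 2.06-fold (edgeR FDR = 0.0122). Klhl38, a kelch-like protein, ran from 16 to 67.6 FPKM (median 35) against 7.63 to 37.5 (median 19.1), with 4 high libraries above the low class and a log2 difference of 1.13 ± 0.26 (FDR = 0.0143). Cblb, a ligase that acts on insulin receptor substrates, was 1.45-fold higher (log2 0.54 ± 0.11, FDR = 0.00961), although 1 high library lay below the low class. Fbxo31 had an FDR of 0.013 but only a 1.17-fold difference, and Fbxo40 (log2 0.17 ± 0.07), Trim54 (0.18 ± 0.08) and Asb2 (0.2 ± 0.11), abundant muscle ligases or their partners, were not called.

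Among genes of ubiquitin itself and of its removal, 3 of 18 were called higher and 0 lower (median log2 0.11). Usp54, of the ubiquitin protease family, was higher by 0.64 ± 0.12 on the log2 scale (edgeR FDR = 0.00329). Zfand5, a zinc finger protein that stimulates the proteasome, differed by 0.47 ± 0.11 (FDR = 0.0193), a call that was lost without LD 33 (log2 0.4, FDR = 0.0651).

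Subunits of the proteasome, which degrades the marked proteins, were not called: 0 of 33 passed in either direction by edgeR. All 33 estimates lay above 0, between 0.01 and 0.16 on the log2 scale, with a median of 0.07. This was not particular to the proteasome, since 26 of 27 respiratory chain estimates also lay above 0 (median log2 0.05). Psmd7, a subunit of the lid, had 86.1 to 102 FPKM in the high class and 80.2 to 92.3 in the low class, a difference of 0.13 ± 0.04 (FDR = 0.0627), and Psmd2 differed by 0.12 ± 0.04 (FDR = 0.143). The proteasome subunits summed to between 2030 and 2570 FPKM in the high class and between 1910 and 2220 in the low class, ranges that overlapped. Near the share of 2.84% over all genes tested, 1 of 31 autophagy and lysosome genes was called (median log2 0.06). This was Gabarapl1, a ubiquitin-like protein of the autophagosome, with 28.4 to 90.6 FPKM against 22.5 to 43.2 and a log2 difference of 0.57 ± 0.15 (FDR = 0.0313). That call was lost in 6 of the 20 fits that each left out 1 library, with an FDR of up to 0.085 (without LD 29). Map1lc3b (0.18 ± 0.04, FDR = 0.0127), Ulk1 (0.26 ± 0.07, FDR = 0.0457) and Pik3c3 (0.31 ± 0.07, FDR = 0.0208), which build the autophagosome, were under the fold limit, and Lamp1 of the lysosome membrane had a difference of 0.13 ± 0.04 (FDR = 0.0929).

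**Figure D2:**
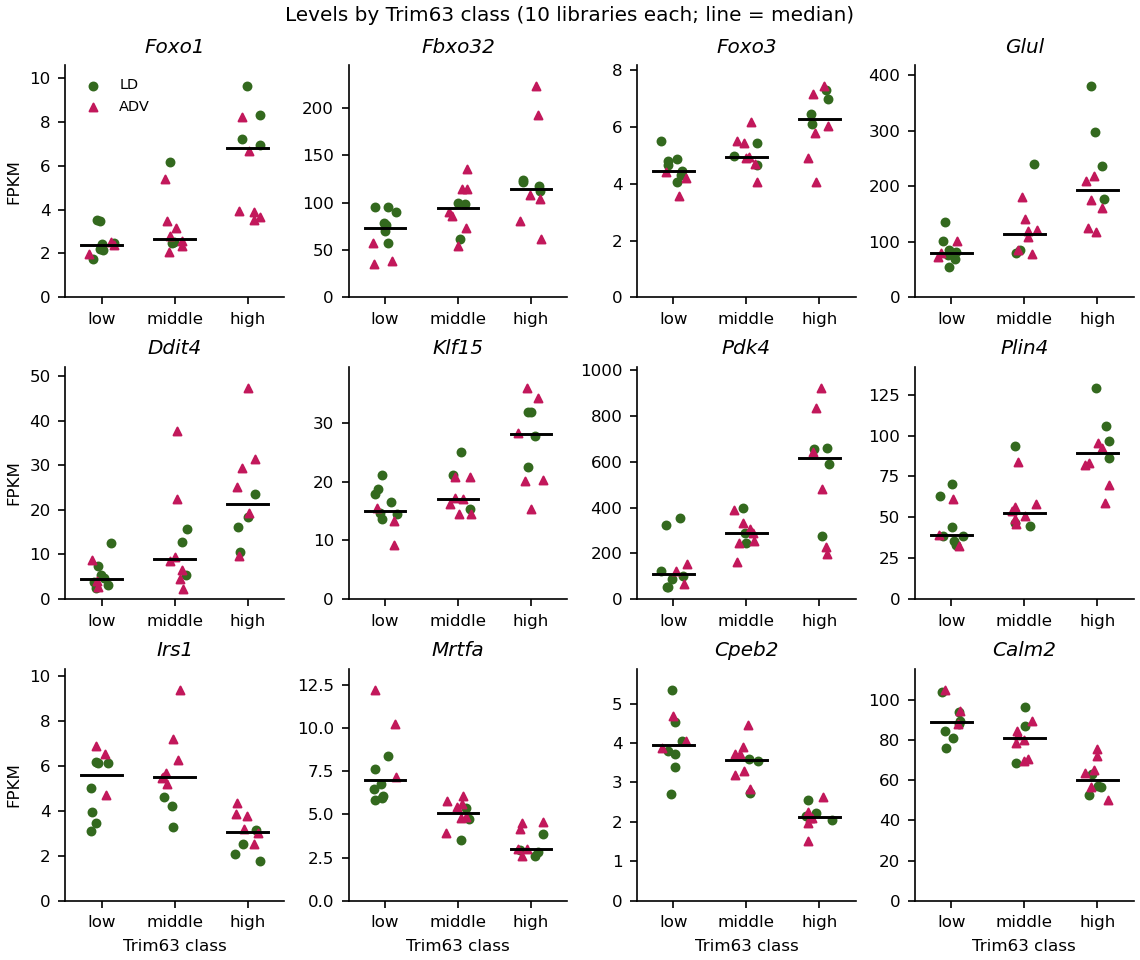
FPKM (vertical axes, from 0) of 12 genes in the 10 low, 10 middle and 10 high libraries by Trim63, with LD mice as circles, ADV mice as triangles and the class median as a line. Mrtfa, Cpeb2 and Calm2 did not overlap between the low and high classes, while the other 9 genes overlapped in at least 1 library.

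Insulin signaling holds FoxO factors out of the nucleus, and FoxO factors drive atrophy genes. Of the FoxO factors and insulin signaling genes, 5 of 29 were called higher and 1 lower (median log2 0.12). Foxo1 (chromosome 3, 52175757 to 52260642, plus strand) ran from 3.52 to 9.61 FPKM in the high class (median 6.8), from 2.05 to 6.15 in the middle class (median 2.68) and from 1.75 to 3.54 in the low class (median 2.4). All but 1 of the 10 high libraries exceeded every low one, yet the 4 LD mice of the high class had at least 6.93 FPKM while 4 of its ADV mice lay at 3.94 or below. The difference was 1.47 ± 0.17 on the log2 scale, or 2.77-fold, with 1 of the smallest p-values of the table (edgeR FDR = 0.00012). Foxo3 ran from 4.05 to 7.43 FPKM against 3.56 to 5.49, a difference of 0.58 ± 0.09 (FDR = 0.00114). Irs1, the adaptor that carries the insulin signal from the receptor, was the 1 lower gene: it ran from 1.77 to 4.36 FPKM in the high class and from 3.11 to 6.89 in the low class, a difference of -0.88 ± 0.15 (FDR = 0.00211).

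Sesn1, which restrains mTORC1 when amino acids are scarce, ran from 7.33 to 15.6 FPKM against 5.36 to 11.7 and was higher by 0.78 ± 0.14 (edgeR FDR = 0.00364). Txnip, which limits glucose uptake, was among the most abundant calls with 150 to 317 FPKM against 108 to 291. Its difference of 0.69 ± 0.18 (FDR = 0.0351) was lost in 11 of the 20 fits without 1 library, with an FDR of up to 0.0783 (without ADV 28). Slc2a4, the glucose transporter of muscle (0.11 ± 0.06, FDR = 0.377), and Akt2, the kinase that moves it to the membrane (0.14 ± 0.05, FDR = 0.0898), were not called.

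The glucocorticoid receptor and its targets held the largest share of calls of the 22 response lists. The lists were chosen with earlier results of these data known, so this rank is a description and not a test. Of the glucocorticoid genes 11 of 23 were higher and 0 lower, beside 1.26% higher and 1.58% lower over all genes tested. Their median log2 difference was 0.66 (0.8 within LD and 0.78 within ADV). The receptor gene Nr3c1 itself did not follow, with 7.41 to 12.4 FPKM in the high class and 8.94 to 14.1 in the low class (log2 -0.1 ± 0.09, edgeR FDR = 0.653). Ddit4, an inhibitor of mTORC1 also called REDD1, ran from 9.73 to 47.3 FPKM (median 21.4) against 2.51 to 12.5 (median 4.42), and 8 high libraries exceeded the low class. It differed by 1.97 ± 0.33 on the log2 scale, or 3.92-fold (FDR = 0.0016). Glul, glutamine synthetase, ran from 117 to 380 FPKM (median 194) against 55.5 to 136 (median 80.6), a difference of 1.42 ± 0.17 (FDR = 0.000181). The row Mir8114 (1.27 ± 0.18, FDR = 0.000363) covers the first bases of Glul on the same strand, so its reads cannot be told apart from those of Glul.

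Klf15, a transcription factor of amino acid breakdown and fuel use in muscle, ran from 15.4 to 36 FPKM against 9.27 to 21.1, and was higher by 0.93 ± 0.15 (edgeR FDR = 0.00109). Its relative Klf9 was higher by 0.79 ± 0.13 (FDR = 0.00131), and the zinc finger factor Zbtb16 by 0.96 ± 0.16 (FDR = 0.00135). Fkbp5, a chaperone partner that dampens the receptor, ran from 10.2 to 54 FPKM against 7.48 to 24.5 (1.35 ± 0.28, FDR = 0.0087), so that 5 high libraries lay within the range of the low class. Cebpd, a transcription factor, differed by 1.5 ± 0.28 (FDR = 0.00364), Arrdc2, of the arrestin family, by 1.85 ± 0.41 (FDR = 0.0118) and the kinase Sgk1 by 0.6 ± 0.14 (FDR = 0.0159). The Sgk1 call was lost under 7 of 24 other settings, among them the fit without a schedule term (FDR = 0.0873). Arrdc2 exceeded the low class in 9 of 10 high libraries, with 24.4 to 68.9 FPKM against 2.13 to 35.8. Tsc22d3, another well-known target, was not called (0.39 ± 0.15, FDR = 0.156), nor was the phosphatase gene Dusp1 (-0.01 ± 0.2, FDR = 0.989).

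Per1 belongs both to the glucocorticoid targets and to the clock, and ran from 8.35 to 20.6 FPKM in the high class and from 2.4 to 15.2 in the low class (log2 1.27 ± 0.28, edgeR FDR = 0.0122). It was the only call among 12 clock genes that peak when Bmal1 is low, and 0 of 7 that peak with Bmal1 were called. Bmal1, the core activator, differed by -0.07 ± 0.17 (FDR = 0.887), its repressor Nr1d1 by 0.51 ± 0.32 (FDR = 0.415), the output factor Dbp by 0.15 ± 0.34 (FDR = 0.866) and the repressor Cry1 by -0.27 ± 0.12 (FDR = 0.207). Ciart, a further repressor, differed by 1.47 ± 0.46 (FDR = 0.0681) and was called without LD 30 and without LD 36. A clock score was taken as the mean standardized level of the genes that peak with Bmal1 less that of the others. In LD it ran from -2.03 to -0.74 in the 4 high mice (median -1.53) and from -2.71 to 0.91 in the 7 low mice (median -0.29, 3 of them above 0). In ADV it ran from 0.06 to 2.01 in the 6 high mice (median 0.94) and from 0.39 to 1.45 in the 3 low mice (median 0.73). The ranges of the classes overlapped within each schedule. With that score in the model 260 genes were called, 249 of them among the 342.

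**Figure D3:**
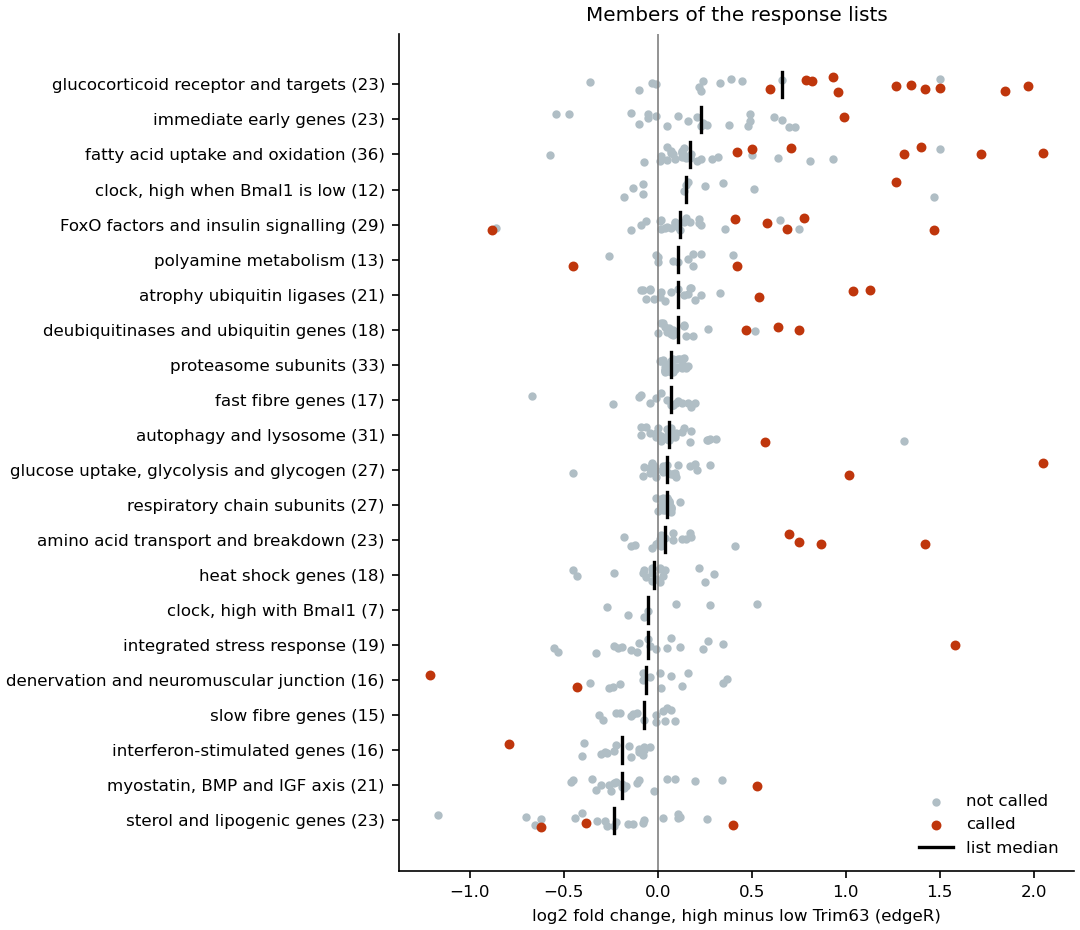
Log2 fold change of high over low Trim63 by edgeR (horizontal axis) for every tested member of the 22 response lists, with the number tested in brackets, called members in red and the list median as a bar. The glucocorticoid list had the highest median (0.66), and the proteasome and respiratory chain members lay within a narrow band near 0.

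Muscle can burn fatty acids or glucose, and a fast shifts it to fatty acids. Of 36 genes of fatty acid uptake and oxidation, 7 were called higher and 0 lower (median log2 0.17, with 0.04 within LD and 0.31 within ADV). Pdk4, the kinase that shuts pyruvate out of the mitochondrial cycle, had the largest rise named here: it ran from 198 to 923 FPKM in the high class (median 618), 164 to 399 in the middle class (median 289) and 51.8 to 356 in the low class (median 112). The difference was 2.05 ± 0.4 on the log2 scale, or 4.14-fold (edgeR FDR = 0.00508), and 7 high libraries exceeded the low class. Ucp3, a mitochondrial carrier that rises with fatty acid supply, ran from 67.3 to 257 FPKM against 14.1 to 110 (1.72 ± 0.34, FDR = 0.00508). Acot2 (1.31 ± 0.28, FDR = 0.00911) and Acot1 (1.4 ± 0.26, FDR = 0.00381) encode thioesterases of fatty acyl-CoA in the mitochondrion and the cytosol, and their near-identical sequences leave the division of reads uncertain. Mlycd, which removes the malonyl-CoA that blocks fatty acid import, was higher by 0.5 ± 0.11 (FDR = 0.0114). Fabp3, the abundant fatty acid binding protein, had 205 to 853 FPKM against 140 to 637 and was not called (0.21 ± 0.24, FDR = 0.717).

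Plin4, a coat protein of lipid droplets, ran from 58.5 to 129 FPKM against 32.6 to 70.3 (log2 1.09 ± 0.15, edgeR FDR = 0.000379). It stands on the list of adipocyte markers too, where it was the only call and the other 10 of 11 markers did not pass. Over all 11 markers the median log2 difference was -0.33. The sum of all 11 was 808 to 1640 FPKM in the high class and 709 to 1580 in the low class. Car3 alone had medians of 713 FPKM in the high class and 718 in the low class. Plin1, the droplet coat of adipocytes, differed by -0.75 ± 0.38 (FDR = 0.298) and the lipase Lipe by 0.3 ± 0.13 (FDR = 0.224). Of 27 genes of glucose uptake, glycolysis and glycogen, 2 were called higher and 0 lower, Pdk4 and Ppp1r3c. Ppp1r3c, which brings a phosphatase to glycogen, had 195 to 538 FPKM against 104 to 271 and was higher by 1.02 ± 0.21 (FDR = 0.00838).

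Of the sterol and lipogenic genes, 1 of 23 was called higher and 2 lower. The median log2 difference of the list was -0.23 over both schedules, -0.05 within LD and -0.37 within ADV, where the low class held 3 mice. Scd2, a fatty acid desaturase, was lower by -0.62 ± 0.14 on the log2 scale (edgeR FDR = 0.0118). Srebf2, the transcription factor of sterol synthesis, had a difference of -0.38 ± 0.09 (FDR = 0.0131), just past the fold limit, and fell under that limit in 9 of the 20 fits without 1 library (log2 -0.36 without ADV 28, for example). Hmgcs1 of the sterol pathway was under it at the start (-0.28 ± 0.08, FDR = 0.035). Lpin1, a phosphatase of glycerolipid synthesis, was higher by 0.4 ± 0.1 (FDR = 0.0236), and lost its call in 5 of those fits, with the highest FDR without LD 33 (0.0703).

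Amino acid transport and breakdown held 4 of 23 genes called higher and 0 lower, beside a list median of 0.04. These were Glul, the proline-degrading enzyme Prodh (log2 0.75 ± 0.12, edgeR FDR = 0.000928) and the neutral amino acid transporters Slc7a8 (0.7 ± 0.16, FDR = 0.0162) and Slc43a1 (0.87 ± 0.24, FDR = 0.0393). Slc7a8 differed by 1.03 within LD (FDR = 0.0191) and by 0.29 within ADV (FDR = 0.734), and its medians did not move alike in both schedules. Its call was lost with the label number in the model. The Slc43a1 call was lost in 10 of the 20 fits without 1 library (FDR = 0.109 without LD 33). Slc43a3, a nucleobase transporter of the same family, lay outside the lists but had 1 of the smallest p-values: it ran from 16.6 to 28.4 FPKM against 11.2 to 17.8, a difference of 0.8 ± 0.09 (FDR = 0.00012). Of 13 polyamine genes, Sat1, which marks polyamines for export, was higher (0.42 ± 0.1, FDR = 0.0221) and Azin1, which frees ornithine decarboxylase from its inhibitor, was lower (-0.45 ± 0.12, FDR = 0.035). Sat1 lost its call without ADV 25 (log2 0.35) and without LD 33 (FDR = 0.0636), and Azin1 in 7 of 20 fits (FDR = 0.0944 without ADV 28).

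The integrated stress response, which shortage of amino acids can set off, showed 1 call in 19 genes (median log2 -0.05). Over all genes tested the share called was 2.84%. Chac1, an enzyme that degrades glutathione, ran from 11.5 to 85.3 FPKM against 1.17 to 52 and differed by 1.58 ± 0.45 (edgeR FDR = 0.048), a call lost in 14 of the 20 fits without 1 library (FDR = 0.119 without LD 33). Atf4, the factor at the center of that response, differed by -0.04 ± 0.09 (FDR = 0.874). Other large rises had no place on a list. Among them were Cimap1d (1.8 ± 0.34, FDR = 0.00382), Kcnf1, a potassium channel subunit (1.41 ± 0.26, FDR = 0.00335) and Gbp10, of the guanylate-binding proteins (1.42 ± 0.37, FDR = 0.0319). Gbp10 lost its call in 5 of the 20 fits without 1 library (FDR = 0.106 without LD 29), and it has close relatives that could share its reads.

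Some abundant genes differed less in size but with little spread. Rab7, a GTPase that steers late endosomes to the lysosome, ran from 115 to 162 FPKM against 87.9 to 125 (log2 0.47 ± 0.07, edgeR FDR = 0.000757). Rilpl1, of the Rab-binding lysosomal proteins, had 92.2 to 125 FPKM against 78.1 to 94.8 (0.39 ± 0.06, FDR = 0.000515), and dropped to 0.38 or 0.37, under the fold limit, without ADV 31, ADV 32, ADV 34 or LD 34. Tacc2, a centrosome protein, differed by 0.67 ± 0.15 (FDR = 0.0132). Lvrn, an aminopeptidase, exceeded the low class in 9 of 10 high libraries (1.03 ± 0.13, FDR = 0.000181). Ramp2, a partner of the adrenomedullin receptor named for its lack of overlap once the values were seen, had 12.2 to 18.2 FPKM against 9.2 to 11.9 (0.43 ± 0.08, FDR = 0.00502). The Ramp2 call was lost under 7 of 24 other settings, in most of them by the fold limit (log2 0.37 with scaling by library size alone).

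The genes lower in the high class were mostly modest in level, and several separated the classes completely. Mrtfa, the actin-sensing partner of serum response factor, had the smallest p-value of the table: it ran from 2.6 to 4.56 FPKM in the high class (median 3), from 3.49 to 6.04 in the middle class (median 5.09) and from 5.85 to 12.2 in the low class (median 6.97). Every high library lay below every low one, and the difference was -1.2 ± 0.13 on the log2 scale, or 2.3-fold (edgeR FDR = 4.59e-05). Sgsm3 overlaps Mrtfa on the opposite strand, and whether the counting used the strand is not given in the sources used here. Cpeb2, which controls translation through the poly(A) tail, ran from 1.51 to 2.63 FPKM against 2.7 to 5.35 (-0.83 ± 0.1, FDR = 0.000181). The membrane-bound guidance protein Sema6d ran from 1.48 to 2.56 FPKM against 2.59 to 4.19 (-0.79 ± 0.1, FDR = 0.000181), and the lipid kinase Pik3c2b from 1.98 to 2.89 against 3.08 to 5.01 (-0.64 ± 0.09, FDR = 0.000223).

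Dnmt3a, an enzyme that sets new DNA methylation, ran from 3.13 to 5.26 FPKM against 5.75 to 7.91 and was lower by -0.6 ± 0.08 on the log2 scale (edgeR FDR = 0.000198). Sec14l5, of a family of lipid-binding proteins, ran from 2.27 to 6.25 FPKM against 6.76 to 12.2 (-1.05 ± 0.15, FDR = 0.000515). Calm2, 1 of the calmodulin genes, was abundant among the lower genes without overlap, with 50.3 to 75.3 FPKM against 76 to 105 (-0.54 ± 0.08, FDR = 0.000363); it was named after its values were seen. Cxxc5, a CXXC zinc finger protein, lay below the low class in 8 of 10 high libraries (-0.95 ± 0.12, FDR = 0.000194), and Ky, a muscle protein whose loss causes spinal curvature in mice, in 9 (-0.89 ± 0.14, FDR = 0.00135).

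The rest of the 15 largest falls were between -0.99 and -0.76 on the log2 scale. Aldh1a2, which makes retinoic acid (edgeR FDR = 0.00335), was raised in the low class by ADV 28 with 13 FPKM, the next highest being 6.04. Ccdc69 (-0.95 ± 0.15, FDR = 0.00109), the uncharacterized 1110002E22Rik (-0.89 ± 0.17, FDR = 0.0039), Tnfaip2 (-0.92 ± 0.2, FDR = 0.0102), the protease inhibitor Serpinb1a (-0.87 ± 0.2, FDR = 0.0147) and the membrane channel protein Ttyh2 (-0.77 ± 0.16, FDR = 0.00842) followed. The orphan receptor Gprc5c (-0.76 ± 0.18, FDR = 0.0176) lost its call without ADV 28 (FDR = 0.0589). Ddit4l, the relative of Ddit4 that also inhibits mTORC1, moved opposite to Ddit4, from 28.8 to 75.7 FPKM against 38.9 to 127 (-0.78 ± 0.19, FDR = 0.0223), and lost its call in 4 fits (FDR = 0.062 without LD 33). Outside these falls, the abundant row Gm55524 (-0.55 ± 0.16, FDR = 0.0496) lies inside Neat1 on the same strand, so its reads cannot be told apart from those of that long noncoding RNA, and its call was lost in 14 fits (FDR = 0.121 without ADV 32).

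Contractile and energy genes showed no call by edgeR: 0 of 15 slow fibre genes, 0 of 17 fast fibre genes and 0 of 27 respiratory chain subunits. Their medians were -0.07, 0.07 and 0.05 on the log2 scale. Myh4, the myosin of the fastest fibres, differed by 0.02 ± 0.13 (FDR = 0.954), Actn3 by 0.2 ± 0.12 (FDR = 0.436), the slow light chain Myl3 by -0.22 ± 0.39 (FDR = 0.828) and the slow calcium store protein Casq2 by -0.31 ± 0.25 (FDR = 0.558). Mstn, which encodes the growth inhibitor myostatin, had 13.6 to 25.9 FPKM in the high class and 11.8 to 26 in the low class (0.2 ± 0.11, FDR = 0.357). In its list of 21 genes the activin receptor Acvr1b was the only call (0.53 ± 0.14, FDR = 0.0331), lost in 7 fits (FDR = 0.0979 without LD 33), while Igf1 (-0.45 ± 0.16, FDR = 0.116) and the myostatin antagonist Fst (-0.46 ± 0.21, FDR = 0.229) were not called. The share called over all genes tested was 2.84%. Among 18 heat shock genes 0 were called.

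Of 16 genes of denervation and the neuromuscular junction, 2 were called lower. Hdac9, a deacetylase that represses muscle genes, ran from 0.232 to 0.693 FPKM against 0.529 to 1.74 (log2 -1.21 ± 0.25, edgeR FDR = 0.00869). Lrp4, the agrin receptor, had a difference of -0.43 ± 0.12 (FDR = 0.0411), lost in 10 fits (FDR = 0.111 without ADV 27). Myog, which rises after denervation, differed by -0.36 ± 0.19 (FDR = 0.325) and the junction adaptor Dok7 by 0.35 ± 0.13 (FDR = 0.14). Zfp36, which speeds the decay of inflammatory transcripts, was the only call of 23 immediate early genes, beside 2.84% of all genes tested. It exceeded the low class in 9 of 10 high libraries, with 4.43 to 12.8 FPKM against 2.67 to 5.76 (0.99 ± 0.17, FDR = 0.0016), and Myc differed by 0.66 ± 0.21 (FDR = 0.0694).

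Markers of other cells were compared because the muscle holds vessels, nerve, fat and connective tissue. All 16 interferon-stimulated genes had estimates below 0, but the only call was Isg15 (log2 -0.79 ± 0.21, edgeR FDR = 0.031), lost in 4 fits (FDR = 0.0707 without ADV 27). Over all genes tested, 1.58% were called lower. Of 10 fibroblast markers, the collagens Col3a1 (-0.48 ± 0.13, FDR = 0.0358) and Col5a1 (-0.4 ± 0.11, FDR = 0.0364) were lower, and lost their calls in 6 and 10 fits (FDR = 0.0774 and 0.0877, both without LD 32), while Col1a1 was not called (-0.43 ± 0.13, FDR = 0.0618). Of the 10 fibroblast estimates, 5 lay above 0 and 5 below, with a median of -0.11. Mfap5 (0.22 ± 0.07, FDR = 0.0568) and Dcn (0.14 ± 0.06, FDR = 0.192) were among those above 0, and neither was called. The fibroblast markers summed to 296 to 416 FPKM in the high class and 306 to 427 in the low class. Of 11 endothelial markers, Kdr, the main receptor for vessel growth factor, was lower, with 3.83 to 9.71 FPKM against 7.37 to 13.1 (-0.62 ± 0.12, FDR = 0.00635). Of the 11 endothelial estimates, 5 lay above 0 and 6 below (median log2 -0.02), and the markers summed to 115 to 151 against 109 to 147 FPKM. By edgeR, 0 of 10 leukocyte, 0 of 7 Schwann cell, 0 of 8 smooth muscle and 0 of 5 red blood cell markers tested were called; Cd68 of macrophages differed by -0.41 ± 0.2 (FDR = 0.282) and Mbp of myelin by 0.34 ± 0.16 (FDR = 0.262). Leukocyte markers summed to 102 to 353 FPKM in the high class and 102 to 273 in the low class, and Schwann cell markers to 28.2 to 63.1 and 29.2 to 56.7. Only 3 of 6 satellite cell markers were expressed highly enough to be tested, and 0 were called. Pax7, the factor that defines satellite cells, was too low to be tested: it had 0.138 to 0.327 FPKM in the high class (median 0.241) and 0.239 to 0.515 in the low class (median 0.36). Myf5, a factor of the same cells, was also too low, with 0.197 to 0.472 FPKM (median 0.329) against 0.379 to 0.717 (median 0.45). Both medians were below those of the low class, and the ranges overlapped. The part of these cells in the other differences was not tested.

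The comparison was then made within each schedule, whose mice are different animals. Within LD (4 high, 7 low) 106 genes (0.881% of those tested) were called by edgeR, and within ADV (6 high, 3 low) 23 genes (0.191%), 11 in both. Of the 106 LD calls 103 had the same direction in ADV, and of the 23 ADV calls 22 had the same direction in LD, where 64.9% of all genes tested had the same direction. The LD calls had a median size of 0.8 on the log2 scale in LD. Their median in ADV was 0.55, counted as positive where the direction was that of LD. All of the 342 genes called over both schedules had the same direction in both, in the mice that had also made those calls. A test of the difference between the schedules called 0 genes by edgeR (352 at an unadjusted p under 0.05, smallest FDR = 0.849).

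Genes called both within LD and within ADV included Mrtfa (log2 -1.09, edgeR FDR = 0.00714 and -1.34, FDR = 0.00468) and Slc43a3 (0.86, FDR = 0.0036 and 0.73, FDR = 0.0471). Foxo1 passed within LD (1.68, FDR = 0.00149) and had 1.2 within ADV (FDR = 0.0641), and Glul had 1.69 within LD (FDR = 0.00149) and 1.07 within ADV (FDR = 0.0961). Fbxo32 stood the other way round, with 1.62 within ADV (FDR = 0.0351) and 0.6 within LD (FDR = 0.292). For Fbxo32 the test of the difference between schedules had an unadjusted p of 0.0179 and an FDR of 0.999, so no difference between the schedules was shown. Pdk4 had 1.83 within LD (FDR = 0.0827) and 2.33 within ADV (FDR = 0.169), and passed only with both schedules together.

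**Figure D4:**
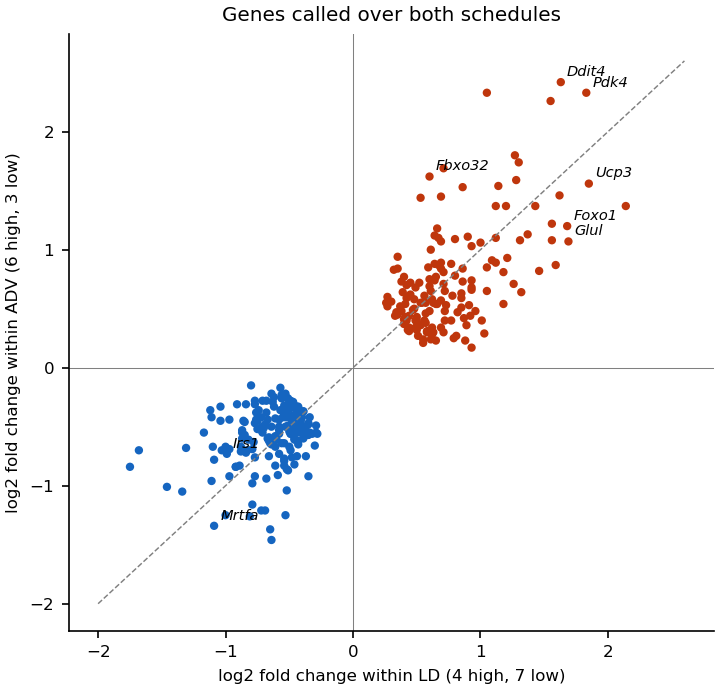
Log2 fold change of high over low Trim63 within ADV (vertical axis, 6 high and 3 low libraries) against that within LD (horizontal axis, 4 high and 7 low) for the 342 called genes, higher ones in red and lower ones in blue, with the dashed line of equal values. All points lie in the quadrants of like direction, with Fbxo32 larger in ADV (1.62 against 0.6) and Glul larger in LD (1.69 against 1.07).

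The 10 middle libraries, which the contrast did not use, spanned a 1.69-fold range of Trim63. The slope of each gene on log2 Trim63 among them, with schedule as a term, was called for 0 genes by edgeR (525 at an unadjusted p under 0.05, 4.36% of those tested, smallest FDR = 0.971). By direction alone, 132 of the 152 higher calls (86.8%) had a slope above 0, against 49.6% of all genes, and 133 of the 190 lower calls (70%) a slope below 0, against 50.4% of all. For 39 called genes the slope had the same direction with an unadjusted p under 0.05, and for 2 the opposite direction.

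Among the middle libraries Klf15 had a slope of 0.75 on the log2 scale per doubling of Trim63 (edgeR, unadjusted p = 0.000662), Fkbp5 of 2.44 (unadjusted p = 0.0101) and Glul of 1.11 (unadjusted p = 0.0423). Each of the 3 had an edgeR FDR of 0.971, so none passed. Of the lower genes without overlap, Calm2 had a slope of -0.32 ± 0.18 (unadjusted p = 0.0973), Mrtfa of -0.15 ± 0.26 (unadjusted p = 0.582), Sema6d of 0.04 ± 0.23 (unadjusted p = 0.877) and Cpeb2 of 0.28 ± 0.24 (unadjusted p = 0.27). The error exceeded the slope for Mrtfa and Sema6d, and the slopes were not tested against the class differences. Foxo1 had 0.33 (unadjusted p = 0.571), with its middle median of 2.68 FPKM close to the low one of 2.4. Fbxo32 had 0.64 (unadjusted p = 0.17) and Pdk4 0.7 (unadjusted p = 0.0804).

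**Figure D5:**
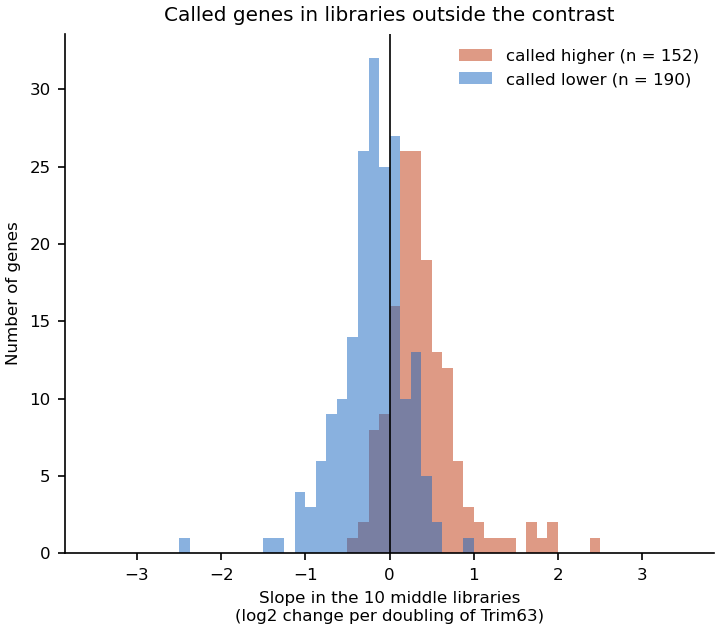
Number of genes (vertical axis) by slope on Trim63 among the 10 middle libraries (horizontal axis, log2 change per doubling of Trim63), for the 152 genes called higher (red) and the 190 called lower (blue) between the other classes. Slopes were above 0 for 132 of the higher calls and below 0 for 133 of the lower ones.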

How the data were processed

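After adapter trimming in Trimmomatic, the authors aligned read pairs to the GRCm39 genome using STAR 2.7.10a and counted reads on exons of UCSC transcripts with HOMER 4.11 (versions from the submitters' processing notes). They deposited raw counts, which are estimated counts because HOMER counts a mate as 0.5 read (14.8% were not whole, and all were rounded), and deposited FPKM values for the same 57186 rows. Each library was assigned to its schedule from its label and ranked by FPKM of Trim63. The longest expressed row per symbol was kept, and all genes but Trim63 entered the fit if they averaged more than 20 reads and more than 0.5 FPKM. The model was edgeR's quasi-likelihood fit (edgeR 4.0.16 in R 4.3.3, TMM scaling); the standard error is the log2 fold change divided by the square root of F, and FDR is the Benjamini-Hochberg adjusted p. DESeq2 1.42.0 and limma 3.58.1 were alternatives. Replicates are mice, 1 library each. No pair of libraries within a schedule was as close as sampling noise (smallest chi-square per degree of freedom 9.97), and pairs across schedules were not compared. In simulated counts of this comparison with 200 of 12029 genes changed, edgeR called 193, of which 188 were changed ones (42 of 50 at 1.5-fold), and 0 with none changed.

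The ranking, the gene lists and the alternatives were chosen with earlier results of these data known. Named genes were the 15 largest rises and 15 largest falls among calls with a mean of at least 2 FPKM and medians moving alike in both schedules, the 10 smallest p-values, the 10 most abundant calls, up to 8 members of each list and Fbxo32, Foxo1, Foxo3, Nr3c1, Klf15, Pdk4, Mstn, Bmal1 and Dbp; Ramp2 and Calm2 were added, and some genes that meet the rule are not reported here. Depth limits genes near 20 reads, whose counting error is large. GC content came from GENCODE vM39.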

Additional observations from a re-analysis of the deposited data

Results flagged for a closer look

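Of 224 groups of 10 libraries (the high and the low class for each of 112 named genes), 15 held a library whose gap to its nearest neighbor, as a percent of the range of the group, exceeded Dixon's 95% critical value. Chance gives such a library in about 1 in 20 groups. In the high class the gap was 62.7% of the range for Fbxo40 (ADV 36, 139 FPKM, next 116), 47.7% for Gabarapl1 (ADV 35), 56.9% for Aldh1a2 (ADV 25), 47.2% for Acvr1b and 46.7% for Tacc2 (both LD 33), 48.7% for Kcnf1 (ADV 31) and 57.1% for Ramp2 (ADV 34). Nr3c1 stood apart at the lower end, with a gap of 47.3% (ADV 34, 7.41 FPKM, next 9.79). In the low class the gap was 72.4% for Aldh1a2 (ADV 28, 13 FPKM, next 6.04), 48.1% for Zbtb16 and 62.4% for Cimap1d (both LD 36), 47.9% for Cebpd (LD 22), and 54.1% for Col3a1, 57.3% for Col5a1 and 46.6%, just past the limit, for Myh4 (all LD 23).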

How the results depend on the processing

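Directions under the alternatives were checked only for genes that the naming rule gives or that are named here. Among the calls of these genes, 0 reversed under any alternative. The 342 calls became 533 without the fold limit, 218 with the 15 highest against the 15 lowest libraries, 173 for the slope over 30 libraries, 111 with 3 classes and a replicate block on the label number, and, chosen after seeing the data, 147 with the label number as a covariate. The 50 calls on the lists became 18 with the block and 28 with the label number. The 23 calls within ADV became 59 with scaling by library size and 58 with ranks taken within each schedule. Leaving out 1 library gave 241 calls (without LD 33) to 406 (without ADV 25), and 37 to 53 on the lists. DESeq2 gave 459 calls, and the count without the 2 highest libraries, also added later, was 255. Whether label numbers pair LD with ADV mice was not tested. Over 14 pairs of like number the correlation of deviations ran from -0.26 to 0.43 (median 0.01), with 6 over 0.1. Of the 14 LD libraries, 3 matched their own number best. Of 73 called genes named here, 54 kept their call in every fit without 1 library, 47 with the label number, 24 with the block and 17 under every alternative. The cause of these changes was not tested.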
